A study of Mus musculus with 80 samples.

Results

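The Cyp4a genes of the mouse encode cytochrome P450 enzymes that hydroxylate fatty acids at the omega carbon. The rows named Cyp4a10, Cyp4a12a, Cyp4a12b, Cyp4a14, Cyp4a31 and Cyp4a32 were taken by symbol from the deposited count table, which gave 6 rows of 22103. All 6 passed the filter on low counts, as did 15197 rows in all. The RNA came from livers of female Balb-C mice, 10 to 12 weeks old, gavaged daily over 7 days with PFESA-BP2 (Nafion byproduct 2, a fluorinated ether sulfonic acid). The 5 groups received 0, 0.03, 0.3, 3.0 or 6.0 mg/kg-day, with 4 individual mice in each. No group carried a genetic change, and each mouse gave 1 library that was run over 4 lanes. The labels do not settle the vehicle of the control mice, since the sample titles name DMSO and the protocol names deionized water.

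Omega hydroxylation is the entry to a side route of fatty acid breakdown: the hydroxylated acid is oxidised by alcohol and aldehyde dehydrogenases to a dicarboxylic acid, which peroxisomes then shorten. Some of these enzymes, but not all, also convert arachidonic acid to 20-HETE, a lipid that acts on blood vessels and kidney tubules. Cyp4a10 and Cyp4a14 are textbook targets of PPARA, the nuclear receptor through which fibrates and many perfluorinated acids act in rodent liver, whereas Cyp4a12a is known as the male-predominant member and depends on androgen and on the male pattern of growth hormone. P450 enzymes take electrons from the reductase Por, and their heme is made by a pathway that starts with Alas1.

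The members lie in 1 cluster of 322.6 kb on chromosome 4 (GRCm38, GENCODE M21 annotation). In order along the chromosome these are Cyp4a12a (chr4:115299046-115332815, plus strand), Cyp4a12b (chr4:115411624-115439034, plus), Cyp4a14 (chr4:115486200-115496142, minus), Cyp4a10 (chr4:115518264-115533649, plus), Cyp4a31 (chr4:115563649-115579015, plus) and Cyp4a32 (chr4:115600969-115621602, plus). All are annotated as protein-coding, Cyp4a10 with 13 exons and each of the others with 12. How far reads can tell these genes apart bears on every value below, so a 90-base stretch of coding exon 5 is shown for each, 5′ to 3′ on the coding strand. It is the stretch in which the most alike pair differed at the most positions, 3. Capitals mark a base unlike the most frequent one at that position among the 6 genes. Where bases tied, the one first in the alphabet was taken as the most frequent. At such positions a capital marks a base that is just as frequent. The first base is coding position 520 in Cyp4a10, Cyp4a31 and Cyp4a32, 517 in Cyp4a12a and Cyp4a12b, and 514 in Cyp4a14.
Cyp4a10: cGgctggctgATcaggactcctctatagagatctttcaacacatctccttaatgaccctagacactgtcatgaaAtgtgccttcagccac
Cyp4a32: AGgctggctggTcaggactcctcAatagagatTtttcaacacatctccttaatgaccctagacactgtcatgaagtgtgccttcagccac
Cyp4a31: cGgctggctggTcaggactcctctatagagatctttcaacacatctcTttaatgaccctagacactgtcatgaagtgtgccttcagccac
Cyp4a12a: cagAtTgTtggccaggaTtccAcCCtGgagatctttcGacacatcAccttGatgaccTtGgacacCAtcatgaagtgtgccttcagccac
Cyp4a12b: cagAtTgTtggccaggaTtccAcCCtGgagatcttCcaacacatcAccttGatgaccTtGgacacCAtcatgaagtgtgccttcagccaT
Cyp4a14: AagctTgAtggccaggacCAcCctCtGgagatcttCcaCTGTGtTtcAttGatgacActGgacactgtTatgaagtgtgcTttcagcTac
These stretches lie at chr4:115524260-115524349 (Cyp4a10), chr4:115609639-115609728 (Cyp4a32), chr4:115569721-115569810 (Cyp4a31), chr4:115326202-115326291 (Cyp4a12a), chr4:115432454-115432543 (Cyp4a12b) and chr4:115492633-115492722 (Cyp4a14, minus strand).

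The letters sort the genes into 3 kinds of sequence. Cyp4a14 stands alone, with 22 of 90 bases in capitals and 24 to 26 differences from each other member in this stretch. Cyp4a12a and Cyp4a12b differ from each other at 3 positions, as do Cyp4a10 and Cyp4a31. Over the whole coding sequence, Cyp4a12a and Cyp4a12b were 98.5% identical (23 of 1524 bases differ), Cyp4a10 and Cyp4a32 97.2% (43 of 1527) and Cyp4a10 and Cyp4a31 96.6% (52 of 1527), while Cyp4a14 was 75.3% identical to Cyp4a10 and 75.9% to Cyp4a12b. Of all 75-base stretches of the transcripts, 100.0% were unique to the gene for Cyp4a14, 86.1% for Cyp4a31, 80.9% for Cyp4a10, 69.6% for Cyp4a32, 59.2% for Cyp4a12a and 58.7% for Cyp4a12b. Neither the read length nor how reads were counted is stated in the sources used here, so counts within the Cyp4a12a and Cyp4a12b pair, and among Cyp4a10, Cyp4a31 and Cyp4a32, are uncertain in how shared reads were divided.

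Library totals ranged from 13086779 to 21467012 counts. Libraries 3, 11, 15, 19 and 23, the third by number in each group, stood apart from the other 15 on the first component of the variation within groups (42.7% of it), with scores of 0.268 to 0.433 against -0.0202 or lower. Counts over gene lists that move without them are given with and without. All 10 hepatocyte markers were present, and their summed level fell outside the control range at 6.0 mg/kg-day, at 92100 to 123400 CPM (counts scaled to library size) against 150200 to 196500 CPM in controls. The sum was 104600 to 145500 CPM at 3.0 mg/kg-day, also below every control, as was the sum of the 10 stellate cell markers (341.9 to 378.8 CPM against 418.9 to 469.4 CPM). Of the 13 marker lists, 1 was above the control range in every mouse at 6.0 mg/kg-day: the 9 neutrophil and monocyte markers summed to 9.25 to 30.7 CPM against 5.62 to 7.08 CPM. Besides the hepatocyte list, 1 list was below it, the pancreatic one, of which 1 of 8 markers was in the table (0.807 to 1.92 CPM against 3.43 to 5.58 CPM). The 10 T and NK cell markers summed to 133.1 CPM in library 22 (6.0 mg/kg-day) and to at most 10.3 CPM in the other mice of its group. The kidney also makes Cyp4a RNA. Of the 9 kidney markers, 3 were in the table, at 0.202 to 0.497 CPM summed at 6.0 mg/kg-day and 0.228 to 0.596 CPM in controls, and the other 6 were not analysed here. In whole liver, fewer cells of a type and less RNA per cell cannot be told apart. The part of these marker differences in the Cyp4a results was not tested.

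All 6 members rose at 6.0 mg/kg-day. The question of this comparison was which liver genes respond to the compound and from which dose. Summed over the members, the level was 448 ± 61.3 CPM in controls (SD, n = 4), 634 ± 171 at 0.03, 564 ± 59.6 at 0.3, 2053 ± 596 at 3.0 and 4553 ± 596 CPM at 6.0 mg/kg-day. The mean at 6.0 mg/kg-day was 10.2 times that of controls and at 3.0 mg/kg-day 4.58 times. CPM here is scaled by edgeR's TMM factors, and each change below is a log2 fold change with its standard error (SE) from edgeR's quasi-likelihood test, with p-values adjusted by Benjamini-Hochberg over all 15197 rows. Against control, 6 of 6 members passed an adjusted p of 0.05 in the upward direction at 6.0 mg/kg-day, where 11.2% of all tested rows did, and 5 of 6 at 3.0 mg/kg-day, where 3.18% did. The median change of the members was 3.62 at 6.0 and 2.35 at 3.0 mg/kg-day, beside -0.02 for all tested rows at either dose. At both doses every treated mouse was above every control mouse for 6 of 6 members, which held for 9.68% of all rows at 6.0 and 5.55% at 3.0 mg/kg-day. Cyp4a12b is included in these counts and medians. It had at most 4 counts in any mouse of the controls or the lower doses, so it passed the filter through the higher doses. With so few control counts, a call in the downward direction was hardly open to this gene.

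**Figure D1:**
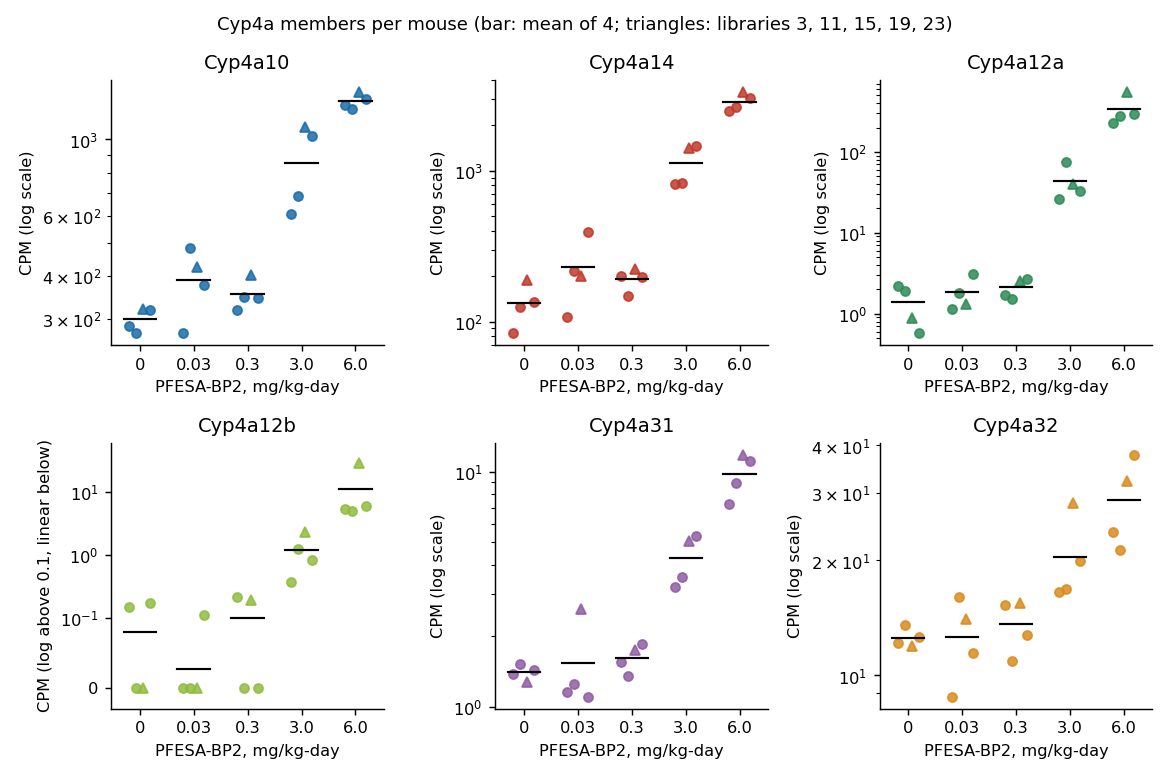
Level of each Cyp4a gene in each of the 20 mice, in CPM on a log axis (for Cyp4a12b linear below 0.1), by daily dose of PFESA-BP2 in mg/kg-day. Points are mice, triangles are libraries 3, 11, 15, 19 and 23, and bars are means of 4 mice. The mice at 3.0 or 6.0 mg/kg-day lie above every control mouse in all 6 panels, and those at 0.03 and 0.3 mg/kg-day overlap the controls.

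Cyp4a10, a fatty acid omega hydroxylase and classical PPARA target, was the most abundant member in untreated liver. Its level was 287, 273, 322 and 318 CPM in control libraries 1 to 4. At 3.0 mg/kg-day it was 609, 685, 1090 and 1025 CPM in libraries 17 to 20. At 6.0 mg/kg-day it was 1258, 1230, 1376 and 1307 CPM in libraries 21 to 24. The 6.0 mg/kg-day mice were close together and all above the highest mouse at 3.0 mg/kg-day, whereas the 3.0 mg/kg-day mice split into a lower and a higher pair. The change against control was 1.51 ± 0.180 (adjusted p = 1.8e-05) at 3.0 and 2.11 ± 0.184 (adjusted p = 8.28e-08) at 6.0 mg/kg-day. From 3.0 to 6.0 mg/kg-day the difference of 0.60 ± 0.177 did not pass (adjusted p = 0.0851). It passed without the 5 libraries that stand apart (0.72, adjusted p = 0.0217), and also without library 19 alone (0.74, adjusted p = 0.0373). With a term for the 5 libraries (adjusted p = 0.0143) and by DESeq2 (0.0247) it passed as well. In 11 of 15 alternatives it did not, with an adjusted p of up to 0.311. Calls over all rows for this step rose from 318 to 1476 without the 5 libraries and to 1400 with the term.

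Cyp4a14, the other classical PPARA target and the member whose reads are least shared, overtook Cyp4a10. Control libraries 1 to 4 had 83.4, 124.2, 189 and 134.4 CPM. Libraries 17 to 20, at 3.0 mg/kg-day, had 816, 824, 1415 and 1467 CPM. Libraries 21 to 24, at 6.0 mg/kg-day, had 2472, 2657, 3333 and 3024 CPM. The 3 groups did not overlap, and the pair of low 3.0 mg/kg-day mice, libraries 17 and 18, was the same as for Cyp4a10. The change was 3.09 ± 0.326 (adjusted p = 3.98e-06) at 3.0 and 4.44 ± 0.347 (adjusted p = 2.25e-08) at 6.0 mg/kg-day. The step from 3.0 to 6.0 mg/kg-day was 1.34 ± 0.306 (adjusted p = 0.0243). This last call was lost when library 17, 18, 22 or 24 was left out (adjusted p from 0.0522 to 0.111).

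Cyp4a12a, the male-predominant omega hydroxylase, had the largest fitted change of the 6 and started low in these females. Control libraries 1 to 4 held 44, 34, 12 and 10 counts, or 2.17, 1.91, 0.894 and 0.571 CPM. At 3.0 mg/kg-day the levels were 26.0, 75.8, 40.5 and 33.2 CPM in libraries 17 to 20. At 6.0 mg/kg-day they were 229, 276, 553 and 297.5 CPM in libraries 21 to 24. The lowest mouse at 3.0 mg/kg-day was above every mouse of the lower doses, and library 23 was the highest mouse of all. The change was 4.94 ± 0.439 (adjusted p = 5.1e-07) at 3.0 and 7.89 ± 0.482 (adjusted p = 1.11e-09) at 6.0 mg/kg-day, so that the mean rose from 1.39 ± 0.775 to 339 ± 146 CPM (SD, n = 4). Without library 23 the mean at 6.0 mg/kg-day was 268 ± 34.8 CPM (n = 3). The step from 3.0 to 6.0 mg/kg-day was 2.95 ± 0.367 (adjusted p = 0.000624).

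Cyp4a12b, the near-copy of Cyp4a12a in the cluster, had rounded expected counts of 3, 0, 0 and 3 in control libraries 1 to 4. The group sums were 6 counts in controls (exact 95% Poisson interval 2.20 to 13.1), 2 at 0.03 (0.242 to 7.23), 8 at 0.3 (3.45 to 15.8), 88 at 3.0 (70.6 to 108.4) and 794 at 6.0 mg/kg-day (739.7 to 851.2). These intervals treat rounded expected counts as read counts and cover counting error only. They leave out how reads shared with Cyp4a12a were divided. At 6.0 mg/kg-day the 4 mice had 5.41, 4.94, 28.9 and 5.89 CPM, so library 23 held most of the counts, 502 of 794. The fitted change was 6.92 ± 0.876 (adjusted p = 8.09e-06) at 6.0 mg/kg-day, and 5.87 when library 23 was left out. At 3.0 mg/kg-day the levels were 0.378, 1.24, 2.34 and 0.840 CPM and the fitted change was 3.70 ± 1.00 (adjusted p = 0.0352). That call was lost in 7 of 8 fits that left out 1 library of either group, namely 1, 2, 3, 4, 18, 19 or 20 (adjusted p from 0.0554 to 0.133), and by limma-voom (adjusted p = 0.167). Expected counts given to Cyp4a12b were 1.36% to 5.44% of those given to the pair in the 8 mice of the higher doses, with the 2 highest shares in libraries 19 and 23.

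Cyp4a31 and Cyp4a32, which share most of their coding sequence with Cyp4a10, were members of low level throughout. Cyp4a31 had 1.38, 1.52, 1.27 and 1.43 CPM in control libraries 1 to 4 and 7.27, 8.97, 11.8 and 11.1 CPM in libraries 21 to 24. It rose by 1.61 ± 0.256 (adjusted p = 0.000422) at 3.0 and by 2.79 ± 0.254 (adjusted p = 1.37e-07) at 6.0 mg/kg-day, with no overlap among the 3 groups. Cyp4a32 had 12.2, 13.6, 11.9 and 12.6 CPM in controls and 23.7, 21.3, 32.3 and 37.7 CPM at 6.0 mg/kg-day. Its change at 6.0 mg/kg-day was 1.19 ± 0.209 (adjusted p = 0.000282), the smallest of the 6. At 3.0 mg/kg-day Cyp4a32 had 16.6, 16.8, 28.2 and 20.0 CPM, all above the controls, but the change of 0.70 ± 0.208 did not pass (adjusted p = 0.0619). It passed without library 17 (0.79, adjusted p = 0.0483), by DESeq2 (adjusted p = 0.0238) and with a term for the 5 libraries that stand apart (0.0202). In 12 of 15 alternatives it did not pass, with an adjusted p of up to 0.23.

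**Figure D2:**
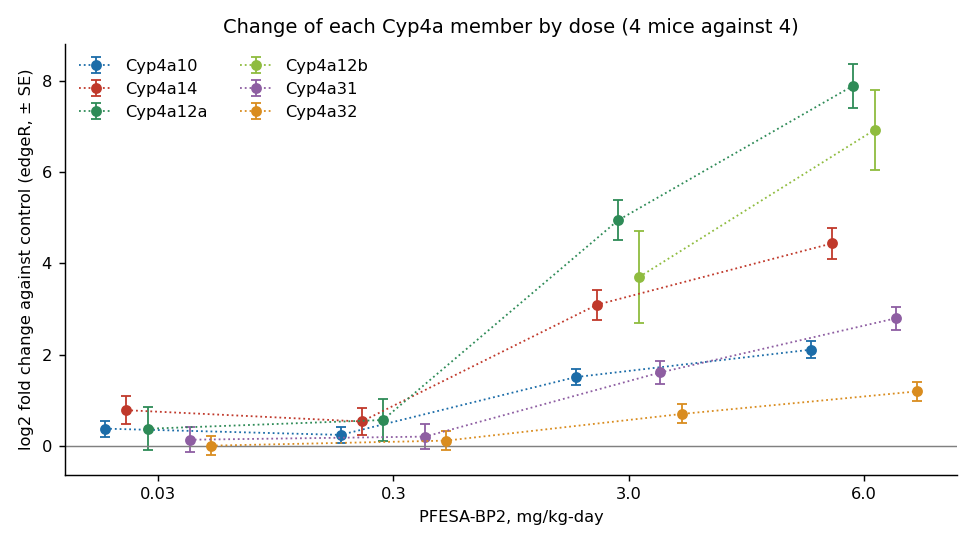
Log2 fold change of each Cyp4a gene against the 4 control mice at each daily dose (mg/kg-day), from edgeR with its standard error as bars. Points are offset sideways and dotted lines join the doses of a gene; Cyp4a12b is drawn only at the 2 higher doses because its counts at the lower doses were near 0. At 6.0 mg/kg-day the changes run from 1.19 for Cyp4a32 to 7.89 for Cyp4a12a.

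At 0.03 and 0.3 mg/kg-day no member passed. Among all tested rows, edgeR called 0 at 0.03 mg/kg-day (0.0%; 565 had an unadjusted p under 0.05, DESeq2 called 10 and limma-voom 1) and 0.29% at 0.3 mg/kg-day. Of the members, Cyp4a10 (0.38 ± 0.177) and Cyp4a14 (0.78 ± 0.304) had an unadjusted p under 0.05 in edgeR at 0.03 mg/kg-day, of 0.0452 and 0.0182, with an adjusted p of 1.0 for each. Cyp4a14 had 106.9, 217, 199 and 389 CPM in libraries 9 to 12, a range that began inside that of the controls. At 0.3 mg/kg-day its levels were 200.2, 147, 223.5 and 197.5 CPM, and no member had an unadjusted p under 0.05. The levels at these doses are therefore given with no direction.

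The step from 0.3 to 3.0 mg/kg-day was called for 5 of 6 members, all but Cyp4a32, where 2.41% of tested rows were called higher. The call of Cyp4a12b in this step (3.49, adjusted p = 0.0453) was lost with no filter on low counts (0.0512), by limma-voom (0.141) and without library 13, 14, 15, 16, 18, 19 or 20 (adjusted p from 0.0726 to 0.151). The step from 3.0 to 6.0 mg/kg-day was called for 4 (Cyp4a12a, Cyp4a12b, Cyp4a14 and Cyp4a31), where 1.03% of rows were called higher. Every mouse at 3.0 was above every mouse at 0.3 mg/kg-day for 6 of 6 members (6.96% of rows), and every mouse at 6.0 above every mouse at 3.0 mg/kg-day for 5 of 6, all but Cyp4a32 (3.26% of rows). In a fit of those 2 groups alone none of the 4 passed (adjusted p from 0.0599 to 0.116), and 0 of the 14366 rows tested there did. The joint test of the doses called 6 of 6 members (21.4% of rows), and a slope over the dose rank was positive and called for 6 of 6 (13.7% of rows were called with a positive slope). The slope per step of dose rank ran from 0.31 ± 0.0490 for Cyp4a32 to 2.64 ± 0.236 for Cyp4a12b. It takes unequal doses as equal steps. No member was called at 0.03 or 0.3 mg/kg-day against control or between these doses, so the slope does not show a steady rise. The comparisons with control share the same 4 control mice.

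The members did not change by the same amount. Within each mouse, the log2 ratio of a member's count to that of Cyp4a14 (1 added to each count) was compared between the 4 controls and the 4 mice at 6.0 mg/kg-day with a two-sided exact permutation test, whose smallest possible p is 0.0286. Such a ratio does not depend on how libraries are scaled where counts are well above the added 1. For Cyp4a12b, with counts near 0 in controls, it also depends on depth. The ratio of Cyp4a10 to Cyp4a14 fell by 2.37, from 1.23 ± 0.418 to -1.14 ± 0.132. That of Cyp4a32 fell by 3.33 and that of Cyp4a31 by 1.75, while that of Cyp4a12a rose by 3.48, from -6.64 ± 1.23 to -3.16 ± 0.384. In these 4 ratios no control mouse overlapped a treated one (exact p = 0.0286 for each, 0.0357 adjusted over the 5 ratios). The 5 ratios share the Cyp4a14 counts of the same 8 mice, so they are not independent results. For Cyp4a12b the ratio differed by 1.66 and the mice overlapped (exact p = 0.143, adjusted 0.143).

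The make-up of the Cyp4a RNA differed with dose. The title of the series calls the sequencing targeted, and how that bears on levels between genes was not tested. Levels between genes are compared here as CPM per kb of annotated exon, with lengths of 2.11 kb for Cyp4a10, 2.60 for Cyp4a14, 2.42 for Cyp4a12a, 2.40 for Cyp4a12b, 2.51 for Cyp4a31 and 1.54 kb for Cyp4a32. The annotated Cyp4a32 transcript holds almost only coding sequence. Its level per kb is therefore overstated relative to the others if its reads were counted over a longer transcript than the annotated one. On this scale the control order was Cyp4a10 at 142 ± 11.4 CPM per kb, Cyp4a14 at 51.0 ± 16.7, Cyp4a32 at 8.18 ± 0.470, Cyp4a12a at 0.573 ± 0.320, Cyp4a31 at 0.558 ± 0.0416 and Cyp4a12b at 0.0333 ± 0.0387. Cyp4a12a and Cyp4a31 did not differ beyond their spread. At 6.0 mg/kg-day the order was Cyp4a14 at 1104 ± 148 CPM per kb, Cyp4a10 at 613 ± 30.2, Cyp4a12a at 140.0 ± 60.1, Cyp4a32 at 18.7 ± 4.97, Cyp4a12b at 4.71 ± 4.91 and Cyp4a31 at 3.89 ± 0.813, with the last 2 within their spread. That place of Cyp4a12b rests on library 23: in the other 3 mice it was at 2.06 to 2.46 CPM per kb, below every value of Cyp4a31 (2.90 to 4.68). Cyp4a10 made up 70.6% ± 4.75 of the members' summed CPM per kb in controls and 32.8% ± 2.63 at 6.0 mg/kg-day, and Cyp4a14 went from 24.8% ± 5.32 to 58.6% ± 1.19. The share of Cyp4a12a was 0.299% ± 0.194 in controls, 2.27% ± 1.54 at 3.0 and 7.24% ± 2.12 at 6.0 mg/kg-day. At 3.0 mg/kg-day Cyp4a10 (46.4% ± 1.04) and Cyp4a14 (49.5% ± 2.52) were close to equal.

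**Figure D3:**
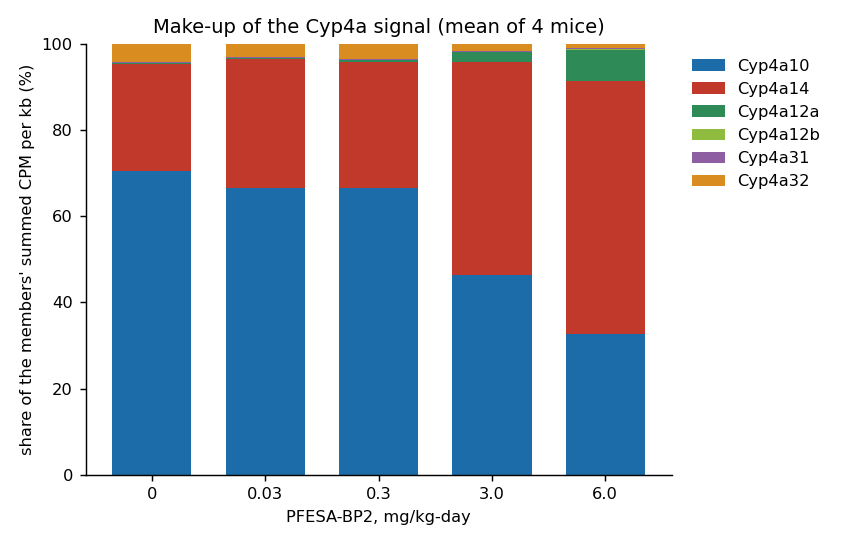
Share of each gene in the summed CPM per kb of the 6 Cyp4a genes (percent, mean of 4 mice) at each daily dose in mg/kg-day; each bar adds to 100%. Cyp4a10 goes from 70.6% in controls to 32.8% at 6.0 mg/kg-day and Cyp4a14 from 24.8% to 58.6%.

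Genes with related roles were taken from 9 lists and compared at 6.0 mg/kg-day, where 11.2% of tested rows were called higher and 11.2% lower. Without the 5 libraries that stand apart 17.8% of rows were called higher and 16.7% lower, against which the counts given below for that fit are to be read. Several lists share genes: 12 of the 22 peroxisomal genes are also among the 46 PPARA targets. Genes beyond the 4 with the smallest adjusted p of a list are named here after their values were seen. Genes with near-identical relatives, such as Acot1 and Acot2, Aldh1a1 and Aldh1a7, and the Mup, Cyp2b, Cyp2c and Sult2a genes, carry the same doubt about shared reads as the Cyp4a genes.

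The other Cyp4 genes were mixed in direction. Of 7 other Cyp4 genes tested, 1 rose and 3 fell, with a median change of 0.10. Without the 5 libraries that stand apart 2 rose, Cyp4f16 besides Cyp4f15, and 3 fell. Cyp4f14, which hydroxylates leukotriene B4 and other lipids, fell by 1.63 ± 0.215 (adjusted p = 1.29e-05) from 633 ± 12.7 to 205 ± 81.5 CPM (SD, n = 4). Cyp4v3 fell by 0.70 ± 0.117 and Cyp4f13 by 0.63 ± 0.172, and Cyp4f15 rose by 0.68 ± 0.199. Cyp4b1, the nearest other tested Cyp4 gene on the chromosome, changed by 0.14 ± 0.211 (adjusted p = 0.683).

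Downstream of omega hydroxylation, 3 of 9 genes listed for the oxidation of omega-hydroxy fatty acids to dicarboxylic acids rose and none fell, with a median of 0.25. These were the aldehyde dehydrogenases Aldh1a1 (2.25 ± 0.193, adjusted p = 7.06e-08, from 1572 ± 317 to 7488 ± 1319 CPM), Aldh1a7 (2.03 ± 0.161) and Aldh3a2 (1.55 ± 0.209), the last of which acts on fatty aldehydes. The alcohol dehydrogenase genes Adh1 (0.23 ± 0.172), Adh4 (-0.29 ± 0.184), Adh5 (0.27 ± 0.137) and Adh7 (-0.19 ± 0.167) did not pass. Without the 5 libraries that stand apart, 4 of the 9 rose, Adh5 besides Aldh1a1, Aldh1a7 and Aldh3a2, and Aldh2 fell. Of 22 genes of peroxisomal chain shortening, 13 rose and 3 fell, with a median of 0.56. Ehhadh, the peroxisomal bifunctional enzyme, rose by 1.62 ± 0.152 (adjusted p = 1.95e-07), the thiolase gene Acaa1b by 2.07 ± 0.167 (adjusted p = 3.32e-08), the carnitine acetyltransferase gene Crat by 1.61 ± 0.187 and Pex11a, which serves peroxisome division, by 1.14 ± 0.171. The 3 that fell were the thioesterase genes Acot3 (-1.45 ± 0.239) and Acot4 (-0.65 ± 0.230) and the oxidase gene Acox3 (-0.64 ± 0.130).

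Of 44 tested PPARA targets outside the Cyp4a genes, 26 rose and 5 fell at 6.0 mg/kg-day (median change 0.65). The acyl-CoA thioesterase genes Acot1 (2.38 ± 0.209, adjusted p = 8.7e-08) and Acot2 (2.07 ± 0.147, adjusted p = 6.58e-09) were among those that rose. Acot3, Acot4, Slc27a1 (-0.98 ± 0.237), Cpt1a (-0.59 ± 0.132), the carnitine transferase gene of the outer mitochondrial membrane, and Gk (-0.49 ± 0.141) fell. At 3.0 mg/kg-day 9 of the 44 rose, and Acot3 (-1.18 ± 0.237) and Cpt1a (-0.48 ± 0.132) fell (median change 0.21). With a term for the 5 libraries that stand apart, 15 rose at 3.0 mg/kg-day, in a fit that called 5.59% of all rows higher against 3.18%. The fitted changes of Cyp4a12a, Cyp4a12b, Cyp4a14 and Cyp4a31 at 6.0 mg/kg-day were larger than that of Acot1, the highest of the 44, and this difference was not tested.

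The gene of the receptor itself fell. Of 17 genes of PPARA and its partners, 1 rose and 6 fell at 6.0 mg/kg-day (median change -0.59), and 13 fell without the 5 libraries that stand apart. Ppara itself fell by 0.80 ± 0.182 (adjusted p = 0.00992) at 3.0 and by 1.07 ± 0.183 (adjusted p = 0.000225) at 6.0 mg/kg-day, from 94.3 ± 7.39 CPM in controls to 44.9 ± 16.8 CPM at 6.0 mg/kg-day. Lpin1, a coactivator of the receptor and a phosphatidate phosphatase, fell by 0.82 ± 0.171 (adjusted p = 0.0015). Pparg, the related receptor best known from fat tissue, rose by 1.04 ± 0.129 (adjusted p = 6.68e-06). Among 8 genes of the electron and heme supply of P450 enzymes, 5 rose and none fell, with a median of 0.69. Alas1 rose by 2.48 ± 0.317 (adjusted p = 9.28e-06), Por by 1.56 ± 0.260, the cytochrome b5 gene Cyb5a by 1.39 ± 0.380, Cyb5r3 by 0.84 ± 0.140 and Cyb5b by 0.54 ± 0.116.

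Because Cyp4a12a is known as a male-predominant gene, lists of sex-biased liver genes were compared. Of 24 male-biased genes, 5 rose and 7 fell, with a median of -0.09, and 8 rose without the 5 libraries that stand apart. Those that rose were Mup20 (2.48 ± 0.166, adjusted p = 3.02e-09), a urinary pheromone protein gene, Elovl3 (2.34 ± 0.385), Gstp1 (1.98 ± 0.170), Cyp2d9 (1.35 ± 0.176) and Mup1 (0.78 ± 0.274). Those that fell were Hsd3b5 (-3.86 ± 0.565), Serpina12 (-2.95 ± 0.513), Egfr (-2.52 ± 0.277), Slco1a1 (-2.07 ± 0.296), Cyp2u1 (-1.47 ± 0.334), Nudt7 (-1.23 ± 0.25) and Cyp7b1 (-0.54 ± 0.125). Of 29 female-biased genes, 19 fell and 5 rose, with a median of -1.36. The P450 genes Cyp2c69 (-5.40 ± 0.445) and Cyp2c40 (-4.26 ± 0.342) fell, and Cyp2b10 (4.69 ± 0.277), Sult2a1 (2.58 ± 0.354), Sult2a2 (1.44 ± 0.171), Cyp2b13 (0.82 ± 0.156) and Hao2 (0.61 ± 0.168) rose. Of 11 genes of growth hormone signalling, 9 fell and none rose, with a median of -0.97, among these Socs2 (-3.04 ± 0.365), Igfals (-1.83 ± 0.164), Igf1 (-1.74 ± 0.167) and Stat5b (-0.80 ± 0.112).

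**Figure D4:**
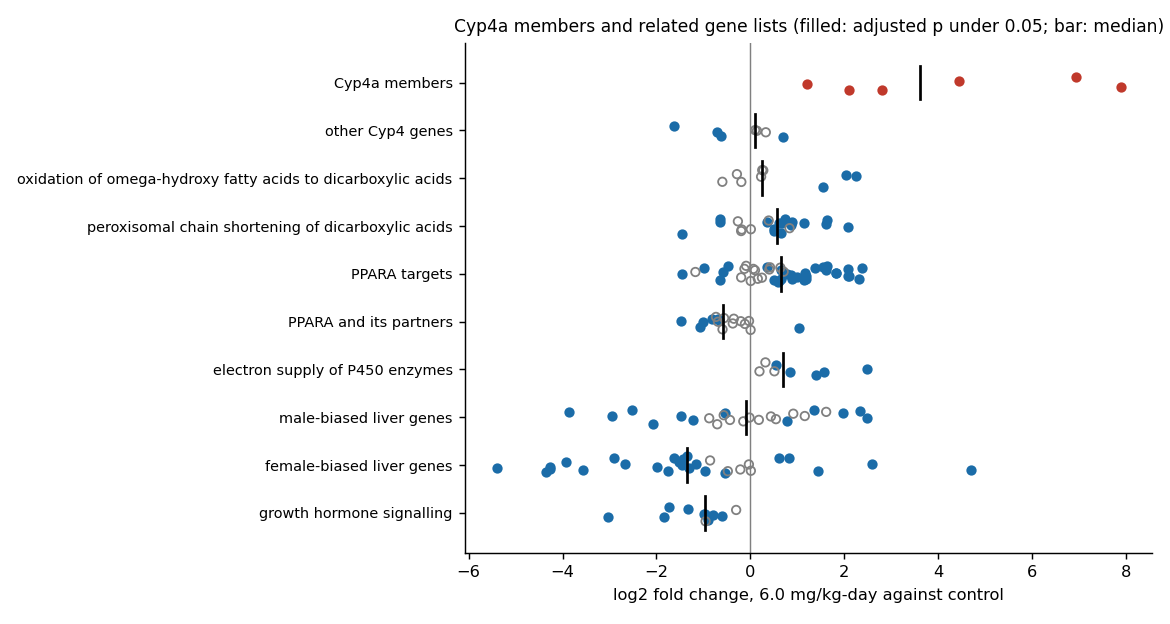
Log2 fold change at 6.0 mg/kg-day against control for the 6 Cyp4a genes and for the tested genes of 9 related lists, 1 point per gene, spread vertically at random within its row. Filled points have an adjusted p under 0.05, open points do not, and bars are medians, which run from -1.36 for the female-biased genes to 3.62 for the Cyp4a genes.

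Around the cluster, 23 further rows lie within 500 kb of its ends or inside it, of which 15 could be tested. At 6.0 mg/kg-day 3 of these rose, Stil (2.63 ± 0.443, adjusted p = 0.000198), a centriole gene, Rad54l (1.49 ± 0.291), a DNA repair gene, and the pseudogene Gm12854 (0.99 ± 0.294), and Efcab14 fell by 0.44 ± 0.135. Stil had 0.390 CPM in controls and 2.44 CPM at 6.0 mg/kg-day. The median change of the 15 was 0.14. The other 3 rows inside the cluster, Cyp4a30-ps, Gm12833 and Cyp4b1-ps2, are pseudogenes with a mean of at most 0.654 CPM in controls or at 6.0 mg/kg-day and were not tested.

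**Figure D5:**
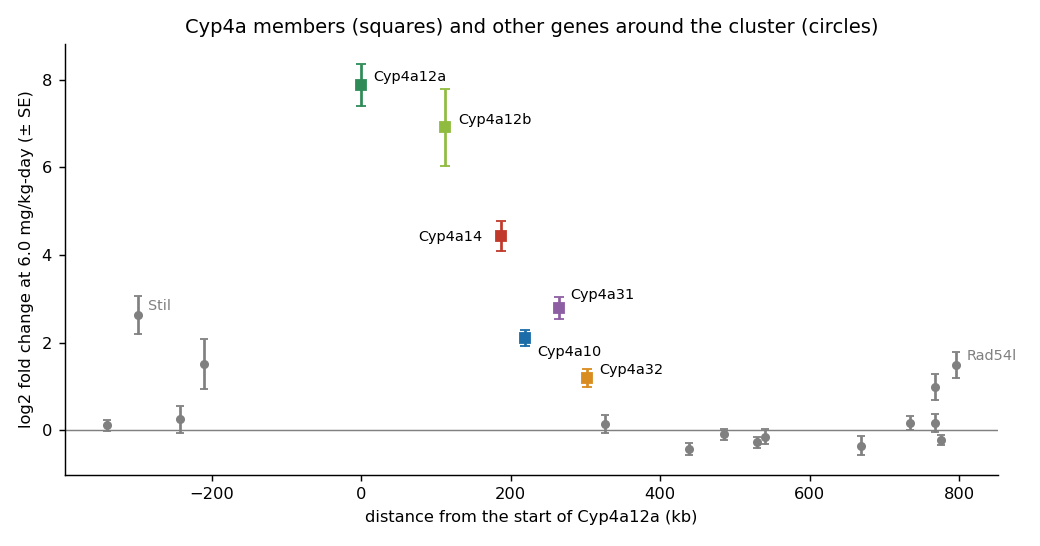
Log2 fold change at 6.0 mg/kg-day against control (± SE) of the 6 Cyp4a genes (squares) and of the 15 other tested genes within 500 kb (circles), by the distance of their start from the start of Cyp4a12a in kb. The other genes have a median change of 0.14, with Stil at 2.63 and Rad54l at 1.49.

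Over the 20 mice, the members' levels, as log2(CPM + 1), correlated with each other at Pearson r of 0.856 (Cyp4a12b and Cyp4a32) to 0.978 (Cyp4a10 and Cyp4a14). These points share the dose groups and the libraries, so r is a description only. Among 7558 other genes with a mean of 10 CPM or more, those most like Cyp4a10 were 4931406C07Rik (0.970), Ugt2b34 (0.967) and Akr1b7 (0.965). Those most like Cyp4a14 were Nek2 (0.970), Akr1b7 (0.967) and Mal2 (0.964). Cyp4a12a was most like Mup20 (0.982), Gstm2 (0.972) and Ccl9 (0.972). For Cyp4a31 these were Gstp-ps (0.980), Ugt1a9 (0.974) and Aox1 (0.970). Cyp4a12b had Ehhadh (0.946), Csf2rb (0.939) and Prune1 (0.939), and Cyp4a32 had Csf2rb (0.935), Fez2 (0.934) and Slc17a8 (0.933). Akr1b7 was the gene shared by Cyp4a10 and Cyp4a14, at a mean of 1.92 CPM in controls and 41.8 CPM at 6.0 mg/kg-day.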

How the data were processed

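Liver RNA of 20 mice was sequenced on an Illumina NextSeq 500, per the labels' protocols, and each library number was taken as 1 mouse (4 lanes were not counted as replicates). The deposited table holds expected counts per gene, 58.0% of them exactly whole. The submitters' processing notes name Partek and GRCm38.p5, while no aligner, counting method, annotation or strand setting is stated there or in the labels. The members and the gene lists were chosen with earlier results of these data known.

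Counts were rounded, filtered with filterByExpr (15197 rows kept, 6906 left out) and scaled by TMM. Genes were tested with the quasi-likelihood method of edgeR 4.0.16 under R 4.3.3, fitting the 20 mice together with 5 group means (15 residual degrees of freedom, biological coefficient of variation 0.219). P-values were adjusted by Benjamini-Hochberg over all tested rows, with 0.05 as the threshold. The SE was derived as |log2 change| over the root of the F value. Ratios to Cyp4a14 were tested by exact permutation over 8 mice. Coordinates and transcripts are from GENCODE M21, which matched 20992 rows (95.0%) by symbol. Coding sequences were aligned with MAFFT 7.526. Named genes are the members, the 4 of smallest adjusted p per list, genes within 500 kb and the 3 most correlated genes per member; 1 gene that this rule would name is not reported here. Alternatives were RLE scaling, no filter, DESeq2 1.42.0, limma-voom 3.58.1, fits of only the groups compared, a term for or removal of the 5 libraries that stand apart, other added counts in the ratios, and leaving out each library.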

Additional observations from a re-analysis of the deposited data

Results flagged for a closer look

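Of 30 groups of 4 mice (6 members at 5 doses), 3 had a highest mouse whose gap to the next, divided by the range of the group, was above Dixon's 95% critical value for 4 samples. For normally distributed values, chance alone gives a flag at either end in about 1 of 20 groups. That rate does not hold for counts near 0. Cyp4a12b reached 28.9 CPM in library 23 at 6.0 mg/kg-day, beside 5.89 CPM in the next mouse. Cyp4a31 was at 2.61 CPM in library 11 at 0.03 mg/kg-day, beside 1.24 CPM in the next. Libraries 11 and 23 are among the 5 that stand apart from the rest. Cyp4a12b was at 0.110 CPM, or 2 counts, in library 12 at 0.03 mg/kg-day, where the other 3 mice had 0 counts. Any count in 1 mouse alone gives this flag.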

How the results depend on the processing

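The count of members called at 6.0 mg/kg-day against control was 6 in every alternative run, and it was 0 at 0.03 and 0.3 mg/kg-day in each of them. When each library was left out in turn, the counts were 4 to 6 at 3.0 mg/kg-day against control, 4 to 5 for 3.0 against 0.3 and 3 to 5 for 6.0 against 3.0 mg/kg-day. With only the 2 groups compared, 0 members passed for 6.0 against 3.0 mg/kg-day. The same range for the log2 ratios to Cyp4a14 was -2.53 to -2.19 for Cyp4a10, 3.11 to 3.95 for Cyp4a12a, 1.13 to 2.11 for Cyp4a12b, -1.98 to -1.56 for Cyp4a31 and -3.54 to -3.14 for Cyp4a32. The ratio of Cyp4a12b passed at 2.11 without control library 1 (exact p = 0.0286, adjusted 0.0286). Without libraries 3 and 23 the ratios were -2.48 (Cyp4a10), 2.97 (Cyp4a12a), -2.01 (Cyp4a31) and -3.54 (Cyp4a32), and none could pass, since 3 mice against 3 allow no exact p below 0.1. The changes that turned in sign had not passed in any fit. At 0.03 mg/kg-day Cyp4a31 was -0.29 without the 5 libraries that stand apart, with a range of -0.25 to 0.26 over the fits that left out 1 library. Cyp4a32 was there -0.023 by limma-voom, -0.062 without these libraries and -0.0050 with a term for them, with a range of -0.12 to 0.14. At 0.3 mg/kg-day Cyp4a12b was -0.075 by limma-voom and -0.60 without these libraries, with a range of -0.36 to 0.74. For 0.3 against 0.03 mg/kg-day Cyp4a12a was -0.058 without these libraries, and the ranges were -0.48 to 0.14 for Cyp4a14, -0.060 to 0.47 for Cyp4a31 and -0.024 to 0.25 for Cyp4a32. The causes were not tested. No paired analysis was possible because each library number belongs to 1 group. The third library by number of each group was instead given a term or left out, and called rows at 6.0 mg/kg-day then went from 3405 to 5639 and 5228, with 6 members called in each fit. Depth limits Cyp4a12b most, with 8 or fewer counts per group up to 0.3 mg/kg-day.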
